A study of Mus musculus with 17 samples.

Results

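The metabotropic glutamate receptor genes Grm2, Grm3, Grm4, Grm5, Grm7 and Grm8 were followed in 17 RNA-seq libraries of mouse hippocampus. These 6 genes were chosen by name as the receptor family and not by how they changed, and other receptors of the family are not reported here. All 6 were among the 17615 genes that had enough reads to be tested, of 55450 genes listed. The mice were C57BL/6J adults of both sexes, and their hippocampi fell into 3 groups. Each library is taken here as a separate mouse, although the sample titles give only a hippocampus, its group and a number. Neither they nor the paper state the side sequenced, although the paper writes of treated hippocampi. The 5 control sgLacZ mice were sham animals without epilepsy. The 6 epileptic sgLacZ and 6 epileptic sgKcna1 mice had received kainic acid, an agonist of ionotropic glutamate receptors, in the right amygdala, which led to status epilepticus and later to spontaneous seizures. Every mouse in all 3 groups also carried a pair of AAV9 vectors in the right ventral hippocampus, the same but for the guide, and ate a doxycycline diet before collection. The vectors encoded dCas9-VP64, a Cas9 without nuclease activity joined to a transcriptional activator, under doxycycline control, and the transactivator that switches it on was driven by a Camk2a promoter, which favours excitatory neurons. The guide sgKcna1 was directed at the promoter of the potassium channel gene Kcna1 and sgLacZ at a bacterial sequence. No control mice with sgKcna1 were analysed here, so an effect of that guide without epilepsy was not measured.

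Metabotropic glutamate receptors are G protein-coupled receptors that sense synaptic glutamate over a slower time scale than the ion channel receptors do. Grm5 encodes a group I receptor, which lies mostly on the postsynaptic side, couples through Gq to phospholipase C and is tied to Homer scaffolds. Grm2 and Grm3 encode group II receptors and Grm4, Grm7 and Grm8 group III receptors, all of which couple to Gi and Go, inhibit adenylyl cyclase and in many synapses act presynaptically to lower transmitter release. In the hippocampus Grm5 is prominent in pyramidal and granule cell dendrites, Grm2 in granule cell mossy fibres, Grm3 in astrocytes as well as neurons, and Grm7 at presynaptic active zones.

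Since these genes are relatives, the chance that a read of one was counted for another was looked at first. Over their coding sequences, from GENCODE transcripts of the older build NCBIM37, the 15 pairs of genes were between 62.0% and 70.7% identical, and the longest run of bases shared by any pair was 27, in Grm3 and Grm4, below the read length of 76. A whole read therefore had no exact match in more than 1 of these coding sequences. The counts of both strands summed to at most 2.51% more than the unstranded count used here, in Grm7, so few reads were set aside for overlap with a gene on the other strand.

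Libraries held 11839240 to 28311328 reads in genes. Unmapped reads made up 19.5% to 27.7% of a control sgLacZ library, 11.0% to 24.1% of an epileptic sgLacZ library and 19.1% to 41.5% of an epileptic sgKcna1 library. Library 12 of the epileptic sgKcna1 group was the shallowest and had 41.5% of its reads unmapped, whereas libraries 4 and 7 of the epileptic sgLacZ group had the lowest shares, at 11.0% and 15.8%. Levels are given as CPM, the usual read count relative to all reads in genes of the library, with TMM (trimmed mean of M-values) scaling between libraries, and 3 reads, taken as the floor of detection, amounted to 0.102 to 0.280 CPM. The targeted gene Kcna1 did not pass the test in any comparison, at 0.32 on the log2 scale (SE 0.47) in epileptic sgKcna1 against epileptic sgLacZ libraries (edgeR, adjusted P = 0.706). That value rests on library 12, which had 132.5 CPM. Without it the log2 fold change was -0.65 (SE 0.27, edgeR adjusted P = 0.293), and the medians over all libraries were 19.1 CPM in the epileptic sgKcna1 and 27.6 CPM in the epileptic sgLacZ group. The markers of hippocampal granule and pyramidal cells were present in every library, with summed levels of 291 to 490 CPM over 7 genes and 485 to 813 CPM over 6 genes.

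Grm5 was the most abundant of the 6 receptors and Grm8 the least. On a scale that allows genes to be compared, CPM per kb of exons, the means over all 17 libraries were 26.6 ± 5.20 (SD) for Grm5, 17.8 ± 3.69 for Grm2, 8.06 ± 1.66 for Grm3, 6.82 ± 0.90 for Grm7, 2.43 ± 1.06 for Grm4 and 1.15 ± 0.27 for Grm8. Grm5 lay above Grm2 in 16 of 17 libraries, and Grm2 above Grm3, Grm7 above Grm4 and Grm4 above Grm8 in all 17. Grm3 and Grm7 were neighbours, Grm3 being the higher in 14 of 17 libraries, and their difference was given no test. The lowest count of any receptor in any library was 97 reads of Grm8, so each was measured far above the floor.

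**Figure D1:**
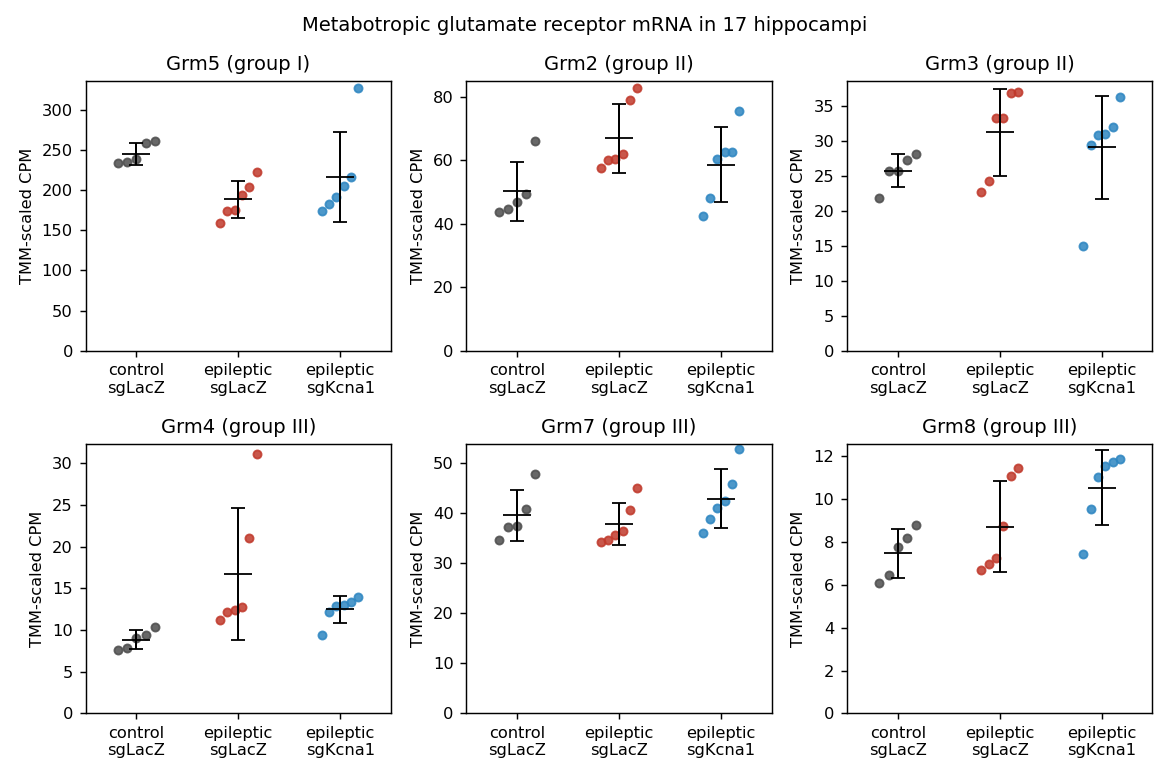
Level of each receptor gene in TMM-scaled CPM (y axis, from 0) in every library of the control sgLacZ (n = 5), epileptic sgLacZ (n = 6) and epileptic sgKcna1 (n = 6) groups, drawn from low to high within a group, with the mean and SD as horizontal and vertical lines. All 6 epileptic sgLacZ libraries lay above every control in Grm4 and below every control in Grm5, with a single sgKcna1 library far from its group in Grm3 and Grm5.

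The first comparison was of epileptic with control hippocampus, both with sgLacZ. Grm4 was 1.90-fold higher in epileptic mice, and it was the 1 receptor of 6 that passed the test, where 7.26% of all tested genes passed as higher and 3.76% as lower, 11.0% in all. Grm5 had a fitted level 0.768 times that of controls, with no overlap between the groups, yet missed the threshold, as did Grm2 on the higher side, and Grm3, Grm7 and Grm8 had smaller differences. At an unadjusted P under 0.05, 2 receptors were higher (Grm2 and Grm4) and 1 was lower (Grm5), beside 34.7% of all tested genes, 18.8% higher and 15.9% lower. The median log2 fold change was 0.25 over the 6 receptors and 0.02 over all genes. The number of genes that passed, 1940, was 0 without any one of epileptic sgLacZ libraries 4, 7 and 9 or of control libraries 13, 14, 16 and 23, so every call in this comparison depends on the libraries included. In whole tissue, fewer cells of a type and less RNA per cell cannot be told apart.

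Grm4 (ENSMUSG00000063239, chromosome 17, 27422387 to 27513826, GRCm38.p6) encodes a presynaptic group III receptor that is best known from cerebellar parallel fibres. Control sgLacZ libraries had 7.62, 7.90, 9.06, 9.37 and 10.4 CPM, averaging 8.86 ± 1.12 (SD, n = 5). Epileptic sgLacZ libraries ranged from 11.2 to 31.2 CPM with a median of 12.6 and averaged 16.8 ± 7.93 (SD, n = 6). Every epileptic library lay above the highest control, but 4 of them lay close to it, between 11.2 and 12.7 CPM, and libraries 7 and 4 stood apart with 21.0 and 31.2 CPM. On the log2 scale the difference was 0.92 (SE 0.23, 95% interval 0.44 to 1.41, edgeR, Benjamini-Hochberg adjusted P = 0.0333). Libraries 4 and 7 were also the libraries with the smallest shares of unmapped reads and the lowest summed levels of blood cell genes, 46.9 and 51.1 CPM over 3 genes against 159 to 321 CPM in controls, and the part of these in the result was not tested. The summed level of 8 markers of thalamus or neighbouring cortex, regions that can be caught in a dissection, was 252 CPM in library 4 and 184 CPM in library 7, against 188 to 216 CPM in controls. Without both libraries, a choice made after their values were seen, the log2 fold change was 0.45 (edgeR adjusted P = 0.254), and with the share of unmapped reads as a covariate it was 0.69 (edgeR adjusted P = 0.0799). The call was also lost without any one of epileptic sgLacZ libraries 4 (0.65, edgeR adjusted P = 0.0789), 7 (0.85, adjusted P = 0.0834) or 9 (1.00, adjusted P = 0.0753), and without any one of the 5 controls, where the log2 fold change was 0.87 to 0.99 and the adjusted P 0.0516 to 0.0929.

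**Figure D2:**
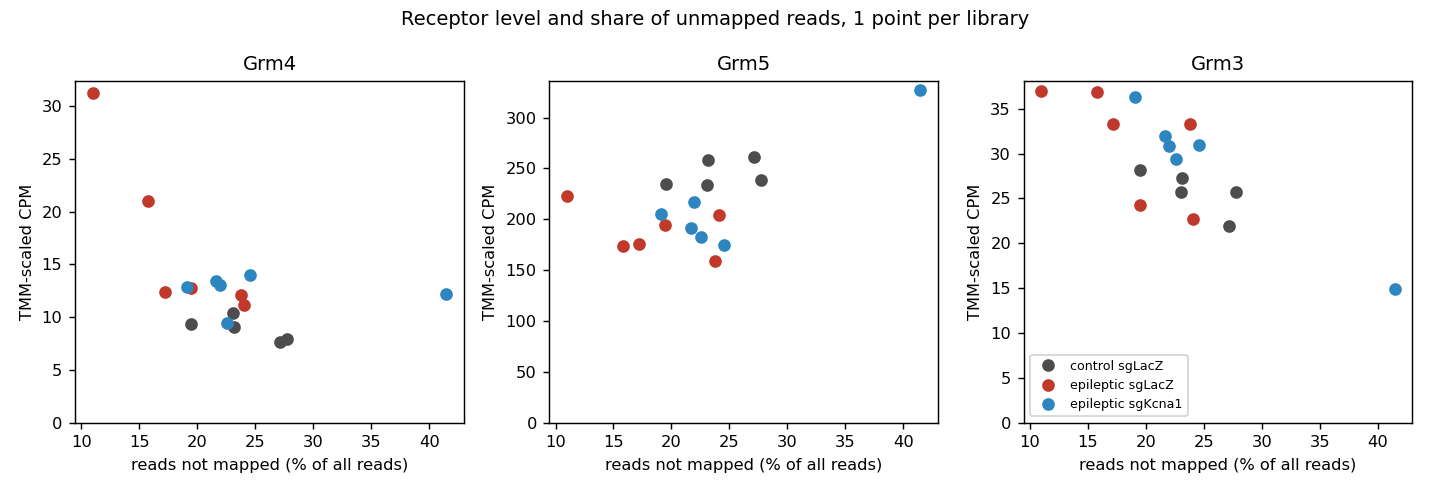
Level of Grm4, Grm5 and Grm3 in TMM-scaled CPM (y axes, from 0) against the share of reads that were not mapped in percent (x axes), 1 point for each of the 17 libraries, coloured by group. Epileptic sgLacZ libraries 4 and 7, at 11.0% and 15.8% unmapped, had the highest Grm4, and epileptic sgKcna1 library 12, at 41.5%, had the highest Grm5 and the lowest Grm3.

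Grm5 (ENSMUSG00000049583, chromosome 7, 87583981 to 88135063, GRCm38.p6), the Gq-coupled group I receptor, was measured with 3138 to 6547 reads per library. Control sgLacZ libraries had 234, 234.5, 238.5, 258 and 261 CPM, averaging 245 ± 13.3 (SD, n = 5). Epileptic sgLacZ libraries ranged from 159 to 223 CPM with a median of 185 and averaged 188 ± 23.2 (SD, n = 6). The highest epileptic library was thus below the lowest control, which was so in one direction or the other for 2 of the 6 receptors, Grm4 and Grm5, and for 4.39% of all tested genes. A log2 fold change of -0.38 (SE 0.14, 95% interval -0.67 to -0.09) did not pass the threshold over all genes (edgeR, unadjusted P = 0.0122, adjusted P = 0.0680). Grm5 passed with DESeq2 (log2 fold change -0.39, adjusted P = 0.0482). It also passed with limma voom, run with quality weights for the libraries (-0.43, adjusted P = 0.000554). A fit of these 2 groups alone gave a pass as well (edgeR, -0.38, adjusted P = 0.0259). So did fits without epileptic sgLacZ library 5 (edgeR adjusted P = 0.0406) or epileptic sgKcna1 library 12 (edgeR adjusted P = 0.00858). The latter library shares the estimate of spread. With the share of unmapped reads as a covariate Grm5 did not pass (-0.26, edgeR adjusted P = 0.207). The summed level of 5 neuronal markers also did not overlap, with 4180 to 4544 CPM in epileptic and 4620 to 4916 CPM in control libraries. Its most abundant gene, Snap25, averaged 2057 CPM in epileptic sgLacZ and 2455 CPM in control libraries. Rbfox3 averaged 447 and 555 CPM, Stmn2 421 and 454 CPM and Syt1 901 and 917 CPM, while Mtap2 went the other way, with 537 and 403 CPM. None of the 5 passed the test by itself, and the part of these markers in the difference was not tested.

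**Figure D3:**
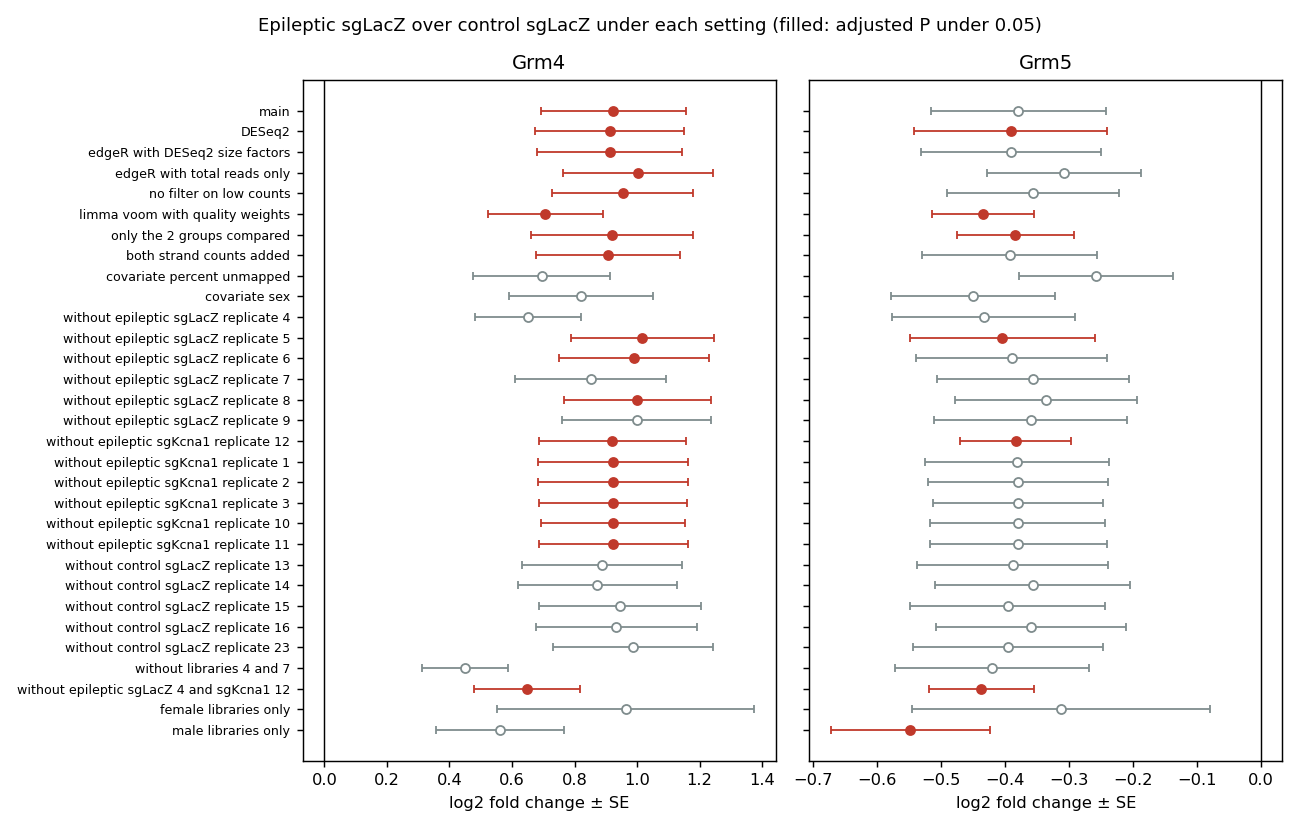
Log2 fold change (x axes) with its SE for Grm4 and Grm5 in epileptic against control sgLacZ mice as reported and under each of 30 other settings (y axis), filled where the adjusted P was under 0.05. Grm4 stayed above 0, from 0.45 to 1.02, and Grm5 below 0 in every setting, while the side of the threshold varied with the setting for both.

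Of the group II receptors, Grm2 (ENSMUSG00000023192, chromosome 9, 106644534 to 106656109, GRCm38.p6), the autoreceptor of granule cell mossy fibres, was the more abundant. Control sgLacZ libraries had 43.7, 44.8, 46.8, 49.5 and 66.2 CPM, averaging 50.2 ± 9.23 (SD, n = 5). Epileptic sgLacZ libraries ranged from 57.5 to 82.9 CPM with a median of 61.1 and averaged 66.95 ± 11.0 (SD, n = 6). The groups overlapped through control library 16 alone, the highest control, above which only 2 epileptic libraries lay, and these were again libraries 4 and 7. Grm2 had a log2 fold change of 0.42 (SE 0.15, 95% interval 0.10 to 0.73, edgeR adjusted P = 0.0680). With scaling to total reads in genes in place of TMM this was 0.49 and passed (edgeR adjusted P = 0.0406), as it did in a fit of the 2 groups alone (0.41, edgeR adjusted P = 0.0487) and without epileptic sgLacZ library 5 (edgeR adjusted P = 0.0383) or epileptic sgKcna1 library 12 (edgeR adjusted P = 0.0338). The summed level of 7 granule cell markers was 414 ± 52.0 CPM (SD, n = 5) in control and 433 ± 32.6 CPM (SD, n = 6) in epileptic libraries, ranges that overlapped. Within this sum C1ql2, C1ql3 and Prox1 averaged 111, 14.7 and 53.7 CPM in control and 155, 23.9 and 65.7 CPM in epileptic sgLacZ libraries. Calb1, Plk5 and Tdo2 went the other way, from 166, 37.2 and 8.76 CPM to 126, 34.3 and 5.53 CPM, and Dsp averaged 22.3 CPM in both. The part of these markers in the Grm2 difference was not tested.

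Grm3 (ENSMUSG00000003974, chromosome 5, 9485236 to 9725352, GRCm38.p6), the group II receptor that astrocytes share with neurons, had 21.9, 25.7, 25.8, 27.3 and 28.1 CPM in control sgLacZ libraries, on average 25.7 ± 2.39 (SD, n = 5). Epileptic sgLacZ libraries ranged from 22.7 to 37.0 CPM with a median of 33.3 and averaged 31.2 ± 6.23 (SD, n = 6). In 4 of 6 epileptic libraries Grm3 was above every control, and in libraries 5 and 6 it lay within the control range. The log2 fold change of 0.28 (SE 0.18, 95% interval -0.09 to 0.65) was within the spread between libraries (edgeR adjusted P = 0.272), and it was 0.0038 with the share of unmapped reads as a covariate (edgeR adjusted P = 0.988). Among the astrocyte markers 2 of 7 passed as higher, Gfap and Aldh1l1, with log2 fold changes of 0.60 (edgeR adjusted P = 0.0447) and 0.33 (edgeR adjusted P = 0.0391). Of the other 5, S100b was at -0.67 (edgeR adjusted P = 0.0656), Slc39a12 at -0.14 (edgeR adjusted P = 0.338) and Aqp4, Gja1 and Aldoc between 0.04 and 0.19, none past the threshold. The summed level of the 7 was 1643 to 1733 CPM in control and 1630 to 2001 CPM in epileptic libraries, and the part of these markers in the difference was not tested.

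The other two group III receptors gave smaller differences than Grm4. Grm7 (ENSMUSG00000056755, chromosome 6, 110645349 to 111567230, GRCm38.p6), a low affinity receptor of the presynaptic active zone, had 34.6, 37.2, 37.5, 40.8 and 47.8 CPM in control sgLacZ libraries and 34.3 to 45.0 CPM, with a median of 36.1, in epileptic sgLacZ libraries. The ranges overlapped almost fully, and the log2 fold change was -0.07 (SE 0.11, 95% interval -0.30 to 0.17, edgeR adjusted P = 0.706). Its sign turned with scaling to total reads in genes, to 0.01. Grm8 (ENSMUSG00000024211, chromosome 6, 27275121 to 28135146, GRCm38.p6), a presynaptic receptor of the lateral perforant path, had 6.08, 6.46, 7.78, 8.19 and 8.82 CPM in control sgLacZ libraries and 6.72 to 11.5 CPM, with a median of 8.01, in epileptic sgLacZ libraries. Here too libraries 4 and 7 were the highest and the only ones above the controls, and the log2 fold change was 0.22 (SE 0.18, 95% interval -0.15 to 0.60, edgeR adjusted P = 0.376).

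**Figure D4:**
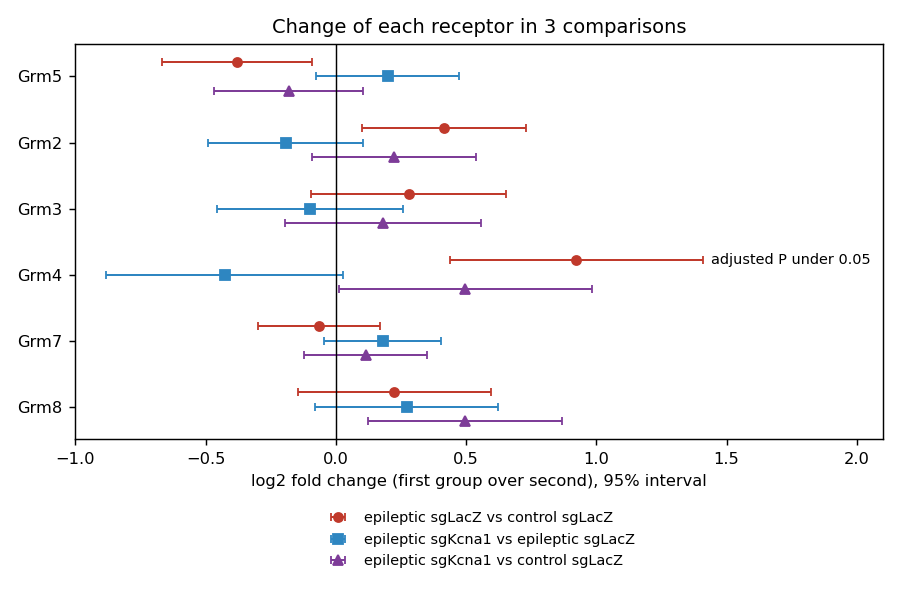
Log2 fold change of each receptor (x axis, first group over second) with its 95% interval, for epileptic sgLacZ against control sgLacZ (circles), epileptic sgKcna1 against epileptic sgLacZ (squares) and epileptic sgKcna1 against control sgLacZ (triangles). Grm4 in epileptic against control sgLacZ, at 0.92 with an interval of 0.44 to 1.41, was the 1 of 18 values with an adjusted P under 0.05, and several other intervals that exclude 0 did not pass the adjustment over all genes.

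The balance among the receptors was then described within each library, where the scaling between libraries cancels. For each 100 reads of Grm5 control libraries had 2.92 to 4.44 reads of Grm4, on average 3.63 ± 0.59 (SD, n = 5), and epileptic sgLacZ libraries had 5.47 to 14.0, on average 8.79 ± 3.41 (SD, n = 6). The ratio of Grm2 also separated the groups, though the CPM of Grm2 itself overlapped. This ratio was 17.2 to 25.7 reads per 100 of Grm5 in control and 29.4 to 47.7 in epileptic sgLacZ libraries. The means were 20.5 ± 3.28 (SD, n = 5) and 35.9 ± 6.67 (SD, n = 6). The ratios of Grm3, Grm7 and Grm8 to Grm5 overlapped between these groups. Of the summed CPM per kb of the 6 genes, Grm5 held 49.1% ± 3.01 (SD, n = 5) in control libraries. It held 37.3% ± 4.39 (SD, n = 6) under epileptic sgLacZ and 41.8% ± 5.20 (SD, n = 6) under epileptic sgKcna1. The corresponding shares of Grm2 were 24.2% ± 2.49, 32.0% ± 2.07 and 27.7% ± 2.94, so the predominance of the group I receptor over the group II receptor Grm2 was narrowest in epileptic sgLacZ mice. Since Grm4 lay above and Grm5 below every control in each epileptic sgLacZ library, the separation of the Grm4 ratio followed from those levels. The lower Grm5 of these libraries also raised the other ratios to it. The share of all tested genes whose ratio to Grm5 separates these groups was not measured. These ratios rest on both genes of a pair, were given no test and do not say which of the pair moved.

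**Figure D5:**
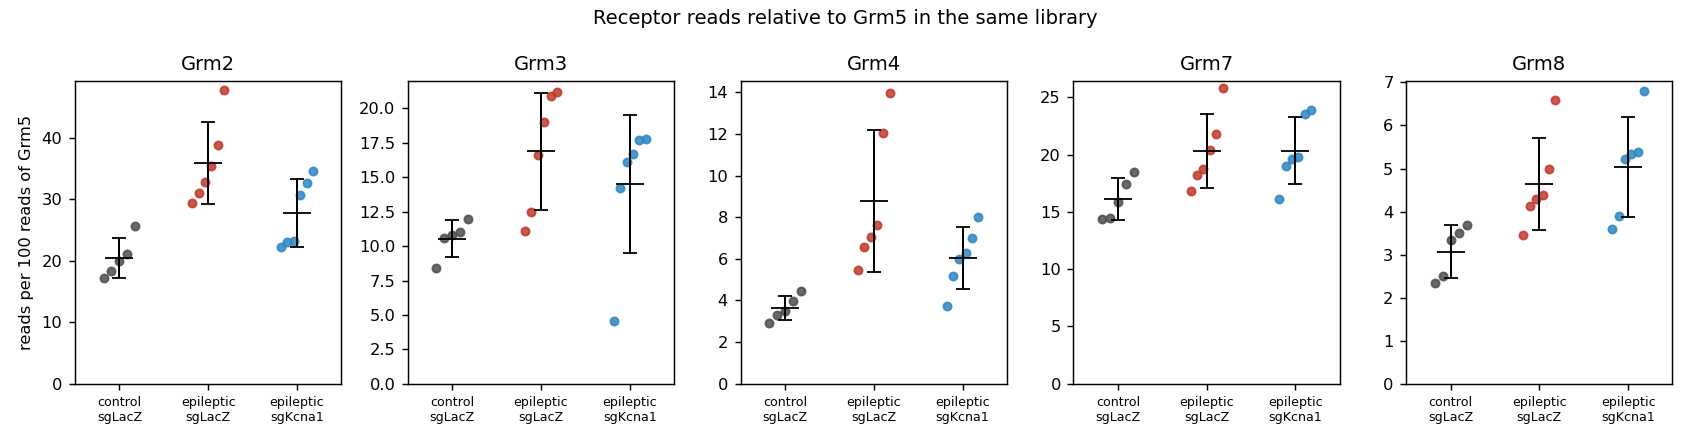
Reads of each receptor gene per 100 reads of Grm5 in the same library (y axes, from 0) in the control sgLacZ (n = 5), epileptic sgLacZ (n = 6) and epileptic sgKcna1 (n = 6) groups, 1 point per library drawn from low to high, with mean and SD as lines. For Grm2 and Grm4 every epileptic sgLacZ library lay above every control, with means of 35.9 against 20.5 and 8.79 against 3.63. For Grm4 this followed from the levels of Grm4 and Grm5, which each separated these groups. The levels of Grm2 overlapped. The share of all tested genes whose ratio to Grm5 separates these groups was not measured.

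The second comparison asked whether receptor levels in epileptic hippocampus differed with the guide directed at Kcna1. None of the 6 receptors passed the test between epileptic sgKcna1 and epileptic sgLacZ libraries, nor did any other gene (edgeR, 0% of 17615), while 0 receptors and 19.2% of all genes had an unadjusted P under 0.05. The groups overlapped in all 6 receptors and failed to overlap in 0.483% of all genes. With DESeq2 143 genes and with limma voom 12 genes passed, none of them a receptor. The median log2 fold change over the receptors was 0.04 and over all genes -0.01. The largest difference was again in Grm4, for which epileptic sgKcna1 libraries ranged from 9.43 to 14.0 CPM with a median of 12.9 and averaged 12.5 ± 1.61 (SD, n = 6). These values covered the 4 lower epileptic sgLacZ libraries, and only libraries 4 and 7 of that group lay above them all. Grm4 had a log2 fold change of -0.43 (SE 0.22, 95% interval -0.88 to 0.03, edgeR adjusted P = 0.280), without libraries 4 and 7 it was 0.05, and with the share of unmapped reads as a covariate it was -0.15.

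Grm5 ranged from 175 to 327.5 CPM in epileptic sgKcna1 libraries, with a median of 198, and averaged 216 ± 56.5 (SD, n = 6). Library 12 alone lay above the epileptic sgLacZ libraries and, at 327.5 CPM, above every control, while the other 5 libraries had 175 to 217 CPM, all within the epileptic sgLacZ range. Grm5 had a log2 fold change of 0.20 (SE 0.13, 95% interval -0.08 to 0.47, edgeR adjusted P = 0.374) with and 0.04 without library 12, and 0.03 with the share of unmapped reads as a covariate. Grm3 showed the reverse in that library, which at 14.9 CPM was the lowest of all 17, whereas the other 5 had 29.4 to 36.3 CPM. The log2 fold change of Grm3 was -0.10 (SE 0.17, 95% interval -0.45 to 0.26, edgeR adjusted P = 0.753) with and 0.03 without it, and 0.18 with that covariate. Library 12 also had the highest summed levels of oligodendrocyte, interneuron, microglial and blood cell markers of all 17 libraries, 10221, 1665, 474 and 380 CPM, and the lowest of granule cell markers, 291 CPM, and the part of these in its receptor levels was not tested.

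Grm2 ranged from 42.4 to 75.6 CPM in epileptic sgKcna1 libraries, with a median of 61.4, and averaged 58.7 ± 11.8 (SD, n = 6), between the means of the other two groups. Its log2 fold change against epileptic sgLacZ was -0.19 (SE 0.14, 95% interval -0.49 to 0.11, edgeR adjusted P = 0.427). Grm7 ranged from 36.1 to 52.9 CPM, averaging 42.9 ± 5.90 (SD, n = 6), and Grm8 from 7.46 to 11.9 CPM, averaging 10.5 ± 1.74 (SD, n = 6). These presynaptic receptors had log2 fold changes of 0.18 (SE 0.11, 95% interval -0.04 to 0.40, edgeR adjusted P = 0.334) and 0.27 (SE 0.17, 95% interval -0.08 to 0.62, edgeR adjusted P = 0.349). A P above the threshold does not show equal levels.

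The third comparison set epileptic sgKcna1 against control sgLacZ mice, which differ in both epilepsy and guide. No receptor and no other gene passed (edgeR, 0% of 17615), and 39 genes passed with DESeq2 and 71 with limma voom, none of them a receptor. At an unadjusted P under 0.05, 2 receptors were higher and none lower, beside 6.77% of all genes, 4.29% on the higher side. They were Grm8, at a log2 fold change of 0.50 (SE 0.18, edgeR unadjusted P = 0.0119, adjusted P = 0.674), and Grm4, with 0.50 (SE 0.23, edgeR unadjusted P = 0.0455, adjusted P = 0.726). In each of these group III genes 5 of 6 epileptic sgKcna1 libraries lay above every control, and the sixth, library 11 for Grm8 and library 10 for Grm4, lay within the control range. In Grm5 5 of 6 epileptic sgKcna1 libraries lay below every control and library 12 above all of them (log2 fold change -0.18, SE 0.14, edgeR adjusted P = 0.797), and without library 12 the log2 fold change was -0.35. Grm2, Grm3 and Grm7 had log2 fold changes of 0.22 (SE 0.15), 0.18 (SE 0.18) and 0.11 (SE 0.11), with edgeR adjusted P values of 0.776, 0.825 and 0.824. This comparison shares the control libraries with the first and the epileptic sgKcna1 libraries with the second, so the values are not independent of those above.

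The genes through which the receptors signal were examined next, in lists chosen by function. Of 21 genes of group I signalling, 2 rose and 3 fell in epileptic against control sgLacZ mice, where 7.26% of all tested genes passed as higher and 3.76% as lower, and the median log2 fold change over the list was 0.20. Shank3, a scaffold of the postsynaptic density that binds Homer proteins, rose by 1.22 on the log2 scale (edgeR, SE 0.30, adjusted P = 0.0330), with 5 of 6 epileptic libraries above every control. Homer3, a scaffold that binds Grm5's protein, rose by 1.20 (edgeR, SE 0.30, adjusted P = 0.0333) but is uncertain, since reads of both strands summed to 4.42 times its count, and on those sums the log2 fold change was 0.29 (edgeR adjusted P = 0.0889). The lower genes were Gnaq, which encodes the alpha subunit of Gq (-0.70, edgeR SE 0.22, adjusted P = 0.0499), Homer1 and Siah1a, the last a ubiquitin ligase that binds group I receptors. Siah1a had a log2 fold change of -0.47 (edgeR, SE 0.13, adjusted P = 0.0376) and, summed over both strands, -0.31 (edgeR adjusted P = 0.0678).

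Homer1, the main scaffold of Grm5's protein, had 103, 105, 110, 117 and 121 CPM in control sgLacZ libraries and 72.5 to 92.5 CPM, with a median of 84.6, in epileptic sgLacZ libraries. Its groups did not overlap, as was so for 1 gene of the 21 and for 4.39% of all tested genes, and its log2 fold change was -0.40 (edgeR, SE 0.13, adjusted P = 0.0489). In this comparison Homer1 was outside the rule for naming genes and was added after its values were seen. Reads were counted per gene, so different transcripts of Homer1 were not told apart. In epileptic sgKcna1 libraries Homer1 ranged from 90.4 to 172 CPM, and 5 of 6 of these lay above every epileptic sgLacZ library. The log2 fold change of 0.47 (SE 0.12, edgeR unadjusted P = 0.00106, adjusted P = 0.213) did not pass the threshold over all genes.

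Of 26 genes of group II and III signalling, 4 rose and none fell in epileptic against control sgLacZ mice, again beside 7.26% and 3.76% of all tested genes, and the median log2 fold change over the list was 0.11. Adcy9, an adenylyl cyclase, rose most, by 2.43 (edgeR, SE 0.48, adjusted P = 0.0310), from 3.95 to 6.65 CPM in controls to 6.11 to 71.4 CPM in epileptic libraries. Its highest values, 71.4 and 31.7 CPM, were those of libraries 4 and 7, the same libraries that were highest in Grm4. Rgs8, a regulator that speeds the shutting off of Gi and Go, rose by 0.70 (edgeR, SE 0.21, adjusted P = 0.0448), Arrb1, which encodes beta-arrestin 1, by 0.67 (edgeR, SE 0.18, adjusted P = 0.0347), and Grk2, a kinase that desensitizes G protein-coupled receptors, by 0.41 (edgeR, SE 0.10, adjusted P = 0.0330). The G protein genes Gnao1, Gnai1, Gnai2, Gnai3 and Gnaz, which these receptors use most directly, had log2 fold changes between -0.07 and 0.15, none past the threshold. Of 15 genes that supply, clear or break down glutamate and related ligands, Slc17a7, the vesicular glutamate transporter of hippocampal excitatory neurons, rose by 0.77 (edgeR, SE 0.21, adjusted P = 0.0366), from 698 ± 80.8 CPM (SD, n = 5) to 1189 ± 359 CPM (SD, n = 6), and no other gene of the list passed, so that 1 of 15 stands beside the 7.26% of all genes. All of the 10 calls in the 3 lists were lost without epileptic sgLacZ library 4, 7 or 9 or without control library 13, 14, 16 or 23, and those of Shank3, Adcy9 and Grk2 remained without control 15. With the share of unmapped reads as a covariate 7 of the 10 were lost, leaving Shank3 (log2 fold change 0.69), Gnaq (-0.39) and Adcy9 (1.89), and 6 of the 10 log2 fold changes shrank by more than 1.5 times, among them those of Slc17a7 (0.45), Rgs8 (0.40) and Homer1 (-0.26). With sex as a covariate Shank3, Homer3, Adcy9 and Grk2 were left.

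None of the 62 genes in the 3 lists passed in either comparison with epileptic sgKcna1 mice (edgeR). At an unadjusted P under 0.05, 4 group I signalling genes were higher and 7 lower in epileptic sgKcna1 than in epileptic sgLacZ mice, as were 4 and 4 genes of group II and III signalling and 0 and 1 of ligand supply, where 8.69% of all tested genes were higher and 10.5% lower at that limit. Against control mice these counts were 0 and 0, 3 and 0, and 1 and 2, beside 4.29% and 2.48% of all genes. The 2 genes with the smallest P in each list are named here. In epileptic sgKcna1 against epileptic sgLacZ libraries they were, besides Homer1, Rgs4, a regulator of Gq and Gi signalling (0.56, edgeR SE 0.14, adjusted P = 0.213), Adcy9 (-1.76, edgeR SE 0.43, adjusted P = 0.213), Dagla, which makes the endocannabinoid 2-AG downstream of group I receptors (-0.50, edgeR SE 0.15, adjusted P = 0.213), Slc17a7 (-0.42, edgeR SE 0.20, adjusted P = 0.255) and Rimkla, an enzyme that makes N-acetylaspartylglutamate (-0.40, edgeR SE 0.22, adjusted P = 0.308). Against control sgLacZ libraries they were, for group II and III signalling, Rgs4 (0.65, edgeR SE 0.14, adjusted P = 0.252) and Grk2 (0.27, edgeR SE 0.10, adjusted P = 0.674), and for ligand supply Slc17a8, another vesicular glutamate transporter (-0.79, edgeR SE 0.21, adjusted P = 0.394), and Naalad2, a peptidase that cleaves N-acetylaspartylglutamate (-1.004, edgeR SE 0.37, adjusted P = 0.674). Naalad2 was scarce, at 0.389 to 0.971 CPM in epileptic sgKcna1 and 0.933 to 1.76 CPM in control sgLacZ libraries. Rgs7, a regulator of Gi and Go, and Slc1a3, a glutamate transporter of astrocytes, were the remaining genes of these lists with an unadjusted P under 0.05, at 0.28 and 0.26 (edgeR adjusted P = 0.711 for both), and were named after their values were seen. For group I signalling, where no gene had an unadjusted P under 0.05, they were the scaffold genes Tamalin (0.29, edgeR SE 0.17, adjusted P = 0.766) and Shank2 (0.22, edgeR SE 0.15, adjusted P = 0.780). All 6 epileptic sgKcna1 libraries had more Grk2 than any control, 170 to 209 CPM against 148 to 169 CPM, where groups did not overlap for 1.14% of all tested genes.

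Finally, the genes whose levels followed each receptor most closely from mouse to mouse were listed, by Pearson's r of log2 CPM over the 17 libraries after each group's mean was removed, among 9317 candidate genes. These values are descriptions, since the libraries share depth and tissue composition, and are given also without epileptic sgKcna1 library 12. Grm2 and Grm7 were among each other's 3 closest genes, with r = 0.85 and 0.81 without library 12. Grm4 went most closely with Adarb1, an RNA editing enzyme that acts on glutamate receptor transcripts (r = 0.93 and 0.93), Srgap2 (0.91 and 0.92) and Gpr26 (0.90 and 0.91). Library 12 had 12.2 CPM of Grm4, near its group's mean of 12.5 CPM, so leaving it out tests these Grm4 values little. Epileptic sgLacZ libraries 4 and 7 stood apart in Grm4, at 31.2 and 21.0 CPM. The part of these libraries in the Grm4 values of r was not tested. Grm8 went with Plcxd2 (0.86 and 0.92), the histamine receptor gene Hrh1 (0.81 and 0.82) and Thrb, which encodes a thyroid hormone receptor (0.77 and 0.77). Grm5 went with Pkp4 (0.93 and 0.80), Gnao1, the alpha subunit of Go (0.93 and 0.84), and Ubqln2 (0.93 and 0.77), and Grm3 with Pmm2 (0.95 and 0.88), Tmem129 (0.94 and 0.84) and Def8 (0.94 and 0.82). Besides Grm2, Grm7 went with Dusp19 (0.92 and 0.91) and Uba6 (0.91 and 0.89), and besides Grm7, Grm2 went with Poglut1 (0.83 and 0.78) and 4833439L19Rik (0.81 and 0.76). Between Grm3 and Grm5 r was -0.71 with and -0.18 without library 12, so the inverse relation rested on that library.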

How the data were processed

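The authors aligned 76-base reads of polyadenylated RNA to mm10 with STAR 2.7 and deposited raw counts of reads per gene, unstranded and for each strand. Reverse and forward totals had a ratio of 0.994 to 0.998, so the unstranded counts were used, although the methods name a stranded kit and the labels an unstranded one. The annotation release is not given in the sources used here. Reads with several places in the genome are left out of such counts, and the floor of 3 reads takes in counting error alone, as copies made by PCR are counted too. Symbols and GRCm38.p6 coordinates came from a gene table by Ensembl identifier (32620 of 55450 genes had a symbol), and exon lengths and coding sequences from GENCODE transcripts of the older build.

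edgeR 4.0.16 under R 4.3.3 was used: filterByExpr by group left 17615 genes, libraries were TMM scaled, and 1 model held all 17 libraries with the group as its single term. Each contrast had a two-sided quasi-likelihood test whose P was adjusted by Benjamini-Hochberg across the 17615 genes at a threshold of 0.05, and 95% intervals use the t quantile at edgeR's degrees of freedom. The chi-square per degree of freedom was 8.67 to 220 over 40 pairs of libraries of a group, so none was a copy. The p-values rest on the spread between libraries, each taken as a separate mouse, which the sample titles do not state. Alternatives were DESeq2 1.42.0 (the tool of the study) and limma 3.58.1 (voom with quality weights, named limma voom here). Such weights let libraries that vary more count for less. Further alternatives were other scalings, no filter, summed strands, covariates, a fit of 2 groups and leaving out each library. The receptors and lists were chosen with earlier results of these data known. A gene of the group I list and a stretch of sequence are not reported here. From each signalling list up to 4 genes past the threshold with the largest change were named, or else the 2 with the smallest P. For each receptor the 3 genes with the highest r were named, among those with a symbol, at least 5 CPM and strands that sum to within 5% of the unstranded count, with a prior count of 2 for log2 CPM.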

Additional observations from a re-analysis of the deposited data

Results flagged for a closer look

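In 3 of 18 sets of values, 1 for each receptor and group, a library lay further from the rest of its group than Dixon's criterion allows, where chance alone gives about 1 in 20. Control sgLacZ library 16 had 66.2 CPM of Grm2, and the next control had 49.5 CPM. Epileptic sgKcna1 library 12 had 14.9 CPM of Grm3, and the next lowest of its group had 29.4 CPM. The same library had 327.5 CPM of Grm5, and the next highest of its group had 217 CPM.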

How the results depend on the processing

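Grm4 in epileptic against control sgLacZ mice kept its direction in all 30 other settings and its call in 7 of 9 changes of method. The fit of the 2 groups alone, without epileptic sgKcna1 libraries, is counted among these 9. With sex as a covariate, read from Xist and Y-linked genes, Grm4 missed the threshold (log2 fold change 0.82, edgeR adjusted P = 0.0522). Of 17 libraries, 6 held both kinds of transcript above 2 CPM. The adjusted P of Grm4 ranged from 0.00489 to 0.717 over the settings.

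The number of receptors past the threshold in this comparison, 1, was 2 with DESeq2, with total reads only and with limma voom, 3 in a fit of the 2 groups alone, and 0 with the covariate for unmapped reads or for sex. Over the fits without 1 library it was 0 to 3. The number of genes, 1940, was 3634 with DESeq2, 7301 with limma voom, 3045 in a fit of the 2 groups alone, 428 with the unmapped share and 516 with sex as covariate, and 0 to 5526 without 1 library, the latter without epileptic sgLacZ library 5, and 4777 without epileptic sgKcna1 library 12. For epileptic sgKcna1 against epileptic sgLacZ mice, where no gene passed, 143 passed with DESeq2, 12 with limma voom, 1 without the filter and 0 to 1508 without 1 library, the last again without library 5. For epileptic sgKcna1 against control sgLacZ mice, where no gene passed, 39 passed with DESeq2, 71 with limma voom, 266 with the unmapped share as covariate and 0 to 14 without 1 library. No receptor passed in these comparisons under any of the 30 settings. The cause of these shifts was not tested.

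Further settings were chosen after seeing the data. Without epileptic sgLacZ libraries 4 and 7, 0 receptors and 0 genes passed in epileptic against control sgLacZ mice. Without epileptic sgLacZ library 4 and epileptic sgKcna1 library 12, 2 receptors and 3106 genes passed, and 88 genes in epileptic sgKcna1 against control sgLacZ mice. In female mice alone 0 receptors and 0 genes passed in epileptic against control sgLacZ mice. In male mice alone 1 receptor and 2103 genes passed there, the receptor being Grm5 (-0.55, edgeR adjusted P = 0.0217) while Grm4 did not pass (0.56, edgeR adjusted P = 0.0932), and 1 gene passed in epileptic sgKcna1 against epileptic sgLacZ and 14 against control sgLacZ mice.

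Some receptors far from the threshold changed sign. In epileptic against control sgLacZ mice Grm7 came to 0.010 on the log2 scale with total reads only and to between -0.12 and 0.012 without 1 library, the last without control library 16, and Grm8 to -0.0100 without libraries 4 and 7 and -0.11 in males. In epileptic sgKcna1 against epileptic sgLacZ mice Grm3 came to 0.041 with limma voom, 0.18 with the unmapped share as covariate, between -0.17 and 0.026 without 1 library, the last without library 12, 0.043 without libraries 4 and 7 and 0.082 without libraries 4 and 12, and Grm4 to 0.050 without libraries 4 and 7 and 0.011 in males. In epileptic sgKcna1 against control sgLacZ mice Grm3 came to -0.18 and Grm5 to 0.073 in females. Scaling moved the median of all genes by at most 0.07 on the log2 scale. No paired analysis was possible because the groups share no library numbers. Depth limited Grm8 most, with 97 to 326 reads per library.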
